A study of Mus musculus with 12 samples.

Results

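The 10 genes described here encode adaptors, kinases and inhibitors that carry or restrain signals from Toll-like receptors (TLRs). They are Myd88, Tirap, Ticam1, Ticam2, Traf3, Traf6, Tbk1, Ikbke, Irak3 and Tnfaip3, were chosen by gene symbol, and were all found among the 23997 genes listed for every library. RNA-seq measured their RNA in bone marrow-derived macrophages (BMDMs) of WT and Pim1-/- mice, in 12 libraries with 3 in each of 4 groups, named WT untreated, Pim1-/- untreated, WT LPS and Pim1-/- LPS. LPS, the bacterial ligand of TLR4, was given at 100 ng/ml for 4 h. All cells came from the femurs and tibias of male C57BL/6 mice aged 8 to 10 weeks and were grown with recombinant human M-CSF at 10 ng/ml for 7 d. The Pim1-/- mice were made by CRISPR–Cas9 editing and carry a large deletion over exons I–V of Pim1, a serine/threonine kinase gene. The study asked whether Pim1 takes part in the antiviral response to TLR ligands, and the comparisons below give the RNA levels of the signalling components between receptor and transcription factor. The labels do not say whether the 3 libraries of a group came from separate mice or cultures, so p-values measure only the spread between these libraries, which may be technical.

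TLR4 signals through both of the adaptor arms of the TLR family. At the cell membrane, TIRAP (encoded by Tirap) brings in MyD88, which assembles IRAK kinases and the ubiquitin ligase TRAF6 and leads to activation of NF-κB and MAP kinases. From endosomes, TRAM (encoded by Ticam2) brings in TRIF (encoded by Ticam1), which engages TRAF3 and the kinases TBK1 and IKKε (encoded by Ikbke) that phosphorylate IRF3 for transcription of type I interferon. IRAK-M (encoded by Irak3), a member of the IRAK family with weak kinase activity, and A20 (encoded by Tnfaip3), a ubiquitin-editing enzyme, restrain these signals and are classical negative feedback genes in macrophages.

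Levels are given in FPKM (fragments per kilobase of transcript, scaled by library size), the unit in which the deposited values were read. Differences are log2 fold changes of FPKM + 1, from a limma fit across the 10581 genes that reached 1 FPKM in 3 or more libraries. A gene was called when its change exceeded 2-fold, its p was below 0.05 and its false discovery rate (FDR, by Benjamini-Hochberg) was below 0.1, and the words rose, fell, higher and lower are used for a difference with an FDR under 0.1 at any size. Both rules passed many genes in these data, so each count below stands beside the share of all tested genes that passed the same rule.

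Pim1 itself was at 24.96, 21.5 and 22.3 FPKM in the WT untreated libraries and at 8.70, 8.00 and 9.51 FPKM in the Pim1-/- untreated ones. After LPS it was at 665, 630.2 and 641 FPKM in WT and at 216, 205 and 236 FPKM in Pim1-/- libraries. The levels in the Pim1-/- libraries were thus 38.1% and 33.9% of those in WT, not 0, and the files give 1 value per gene, so the exons these reads came from were not analysed. The 7 macrophage markers given here (Adgre1, Csf1r, Cd68, Itgam, Fcgr1, Mertk and Lyz2) were all expressed, and their summed level was 27688 to 29734 FPKM in WT untreated and 28940.2 to 29495 FPKM in WT LPS libraries, against 14216 to 15147 and 14248 to 16016 FPKM in the Pim1-/- ones, with all 7 lower in both conditions. Marker lists of 7 other cell types (erythroid, stromal, T and NK, B, dendritic and mast cells, and neutrophils) each summed to at most 11.5 FPKM in any library, and defining markers such as Cd3e, Cd8a, Ncr1, Pax5, Retnlg and Fcer1a were listed at 0 throughout. Of these lists, 3 stromal, 2 dendritic cell, 2 neutrophil, 1 B cell and 1 T and NK cell marker reached 1 FPKM in some library. The summed T and NK cell markers, with Cd3e and Ncr1 at 0, were at 4.83 to 5.40 FPKM in WT untreated and 0.668 to 0.698 FPKM in Pim1-/- untreated libraries, and the stromal markers at 11.2 to 11.5 FPKM in WT LPS and 2.96 to 3.71 FPKM in Pim1-/- LPS libraries. Other lists went the other way. The neutrophil markers were at 1.5 to 1.9 FPKM in WT untreated and 3.3 to 4.3 FPKM in Pim1-/- untreated libraries. The dendritic cell markers were at 6.23 to 6.53 FPKM in WT LPS and 6.85 to 7.19 FPKM in Pim1-/- LPS libraries. The part that these marker differences play in the values of the 10 genes was not tested. In bulk RNA, fewer cells of a type and less RNA per cell cannot be told apart.

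The deposited columns also differ in scale between treatments, summing to 452511 to 489710 FPKM in untreated and 713307 to 849323 FPKM in LPS libraries. As deposited, the median change of all tested genes with LPS was 0.0015 in WT and −0.013 in Pim1-/- BMDMs on the log2 scale, and with every library rescaled to a sum of 1000000 it was −0.71 and −0.62. For the genotypes after LPS the median was −0.03 as deposited and 0.13 after rescaling, and without treatment it was −0.05 and −0.01. The rescaling turned the 2130 higher and 1556 lower calls for LPS in WT into 1236 and 4079, the 1546 and 1103 in Pim1-/- into 1026 and 3146, and the 371 and 545 between genotypes after LPS into 610 and 377. Directions of the 10 genes that turned under this or another scaling are given with each result.

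LPS raised most of the 10 genes in both genotypes, and the largest increase was that of the A20 gene. In WT BMDMs, 6 of the 10 (Tnfaip3, Ikbke, Myd88, Irak3, Tbk1 and Tirap) were called as higher, where 20.1% of all tested genes were, and none was called as lower, where 14.7% were. With the FDR alone, 9 were higher, against 45.8% of all genes, and Traf3 was lower, against 45.4% of all genes. In Pim1-/- BMDMs, 6 were again called as higher, against 14.6% of all genes, with Ticam1 among them and Tirap short of 2-fold on FPKM + 1. None was called as lower there, against 10.4% of all genes. Without a fold threshold 9 were higher there, against 43.2%, and Traf3 was lower, against 44% of all genes. With rescaled libraries, 7 were higher and 3 lower in WT at the same FDR, and 7 and 1 in Pim1-/- BMDMs. Of all 10581 tested genes, 2474 were then higher and 7565 lower in WT, and 2154 and 7778 in Pim1-/- BMDMs. Under quantile normalization 8 were higher and 0 lower in WT, and 9 and 0 in Pim1-/- BMDMs. For all tested genes these counts were 3957 and 5600 in WT, and 3681 and 5640 in Pim1-/- BMDMs. The median log2 change of the 10 genes was 1.46 in WT and 1.29 in Pim1-/- BMDMs.

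Without Pim1, 9 of the 10 genes were lower, both in untreated BMDMs and after LPS, and Traf3 did not pass the threshold in either. With libraries rescaled to a sum of 1000000, 8 were lower after LPS, Traf3 was higher and Traf6 did not pass. Of all 10581 tested genes, 3221 were lower and 5301 higher after LPS with that rescaling. In untreated cells Ikbke alone was called as lower, where 3.37% of all genes were, and none of the 10 was called as higher, where 4.4% were. Without a fold threshold 9 were lower, against 44.2% of all genes, and 0 higher, against 34.6%. After LPS, Irak3 alone was called as lower, against 5.15% of all genes, and none was called as higher, against 3.51%. Here again 9 were lower at an FDR under 0.1, against 43.4% of all genes, and 0 higher, against 37.6%. The median log2 difference of the 10 genes was −0.62 without treatment and −0.52 after LPS, beside −0.05 and −0.03 for all tested genes. Ikbke stayed called in untreated cells, and Irak3 after LPS, under each alternative scaling, filter and left-out library.

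The difference between the genotypes in their response to LPS was tested as an interaction. None of the 10 genes passed 2-fold in it, where 2.24% of all genes did so with a stronger increase in Pim1-/- and 4.43% with a weaker one, although 8 of the 10 had an unadjusted p under 0.05. At an FDR under 0.1, 3 genes (Ikbke, Ticam1 and Ticam2) rose more in Pim1-/- BMDMs, against 32.7% of all genes, and 5 (Irak3, Myd88, Tnfaip3, Tirap and Tbk1) rose less, against 35.8%, though Myd88, Tnfaip3 and Tbk1 turned to the other side under quantile normalization. The balance depended on the scale, with 5 genes rising more and 2 less when libraries were rescaled to a sum of 1000000, and 3 and 1 under quantile normalization. Of all 10581 tested genes, 4627 had a stronger and 2752 a weaker response with the rescaling, and 3844 and 3236 under quantile normalization. Ikbke, Ticam1 and Ticam2 rose more, and Irak3 less, at an FDR under 0.1 on each of these scales. As deposited, both genes of the TRIF arm adaptors were thus on one side and both of the MyD88 arm adaptors on the other. This split of 2 genes per arm did not extend to their neighbours. At the same FDR, 2 of the 3 IRAK kinase genes had a positive difference in response and 0 a negative one. Of the 4 genes of TBK1 scaffolds and Irf3, 1 had a positive and 2 a negative difference, and Tbk1 itself rose less. Tirap kept its direction under every scaling, and Myd88 did not under quantile normalization. However, Tirap did not pass when libraries were rescaled (−0.07, limma adjusted p = 0.452) or under quantile normalization (−0.13, adjusted p = 0.147). The WT and Pim1-/- responses each rest on the same libraries as the genotype differences, so these values are not independent of each other.

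**Figure D1:**
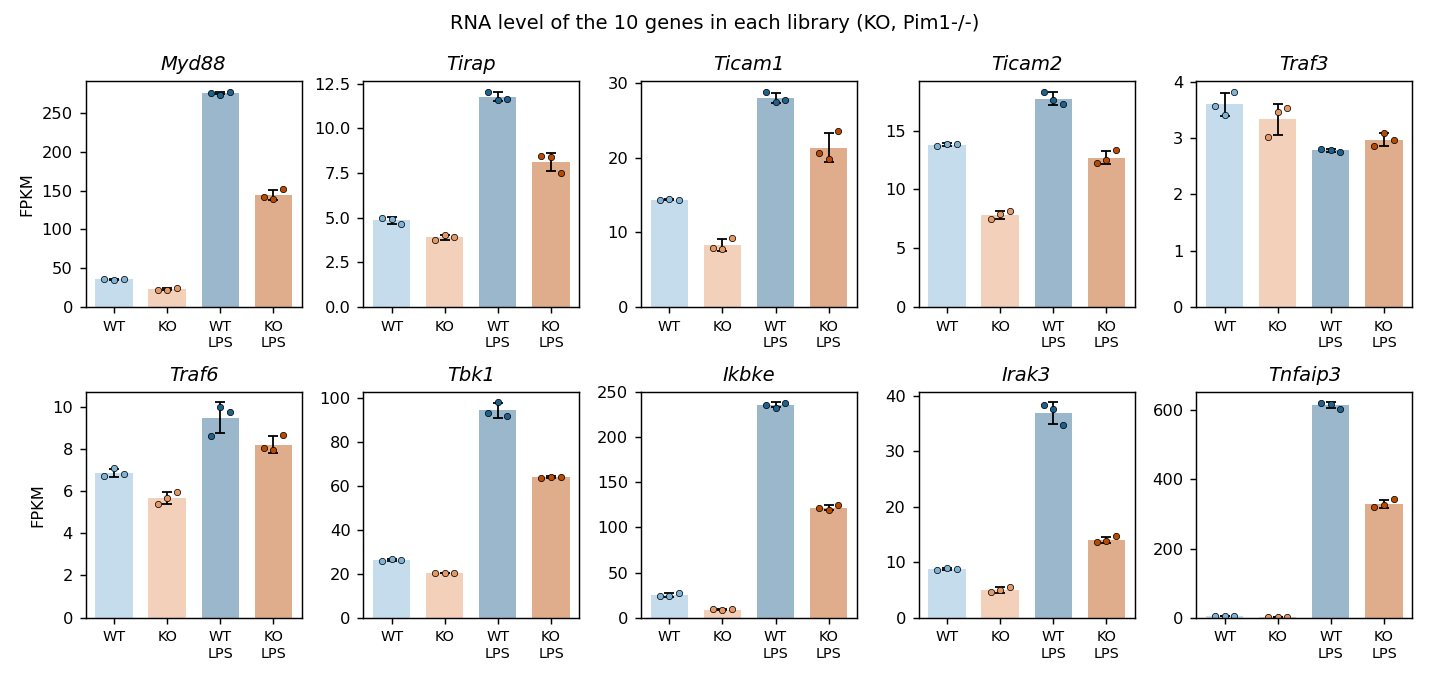
RNA level in FPKM (linear axis from 0, a separate scale for each gene) of the 10 genes, with KO for Pim1-/-. Bars are means of 3 libraries, error bars are SD and points are the libraries; the Pim1-/- bar is lower than the WT bar for every gene except Traf3 after LPS, where it is 2.97 against 2.79 FPKM.

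Myd88 (chr9:119335934-119341411, minus strand, GRCm38), the adaptor of nearly all TLRs, had the highest level of the 10 genes in untreated cells of both genotypes. Its levels were 36.2, 34.7 and 36.1 FPKM in WT untreated and 22.5, 21.9 and 24.8 FPKM in Pim1-/- untreated libraries. After LPS they were 277, 274 and 277 FPKM in WT and 141, 139.7 and 152 FPKM in Pim1-/- libraries. All Pim1-/- libraries were below all WT ones in both conditions, and the LPS libraries were above every untreated library. The mean rose 7.73-fold in WT and 6.25-fold in Pim1-/- BMDMs, and the Pim1-/- mean was 64.7% of the WT mean without treatment and 52.3% of it after LPS. On the log2 scale the difference between genotypes was −0.61 ± 0.05 (SE, limma adjusted p = 1.56e-08) and −0.93 ± 0.05 (adjusted p = 8.73e-11). The annotation places Acaa1a, a peroxisomal thiolase gene, on the opposite strand over 1736 bases of Myd88, and its means, 54.4 and 34.4 FPKM untreated and 133 and 61.6 FPKM after LPS in WT and Pim1-/- BMDMs, moved the same way as those of Myd88. As the strand setting of the authors' counting is not known here, reads of the shared stretch cannot be told apart. Slc22a14 shares 5478 bases with Myd88 on the same strand and was at 0 FPKM in every group.

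Tirap (chr9:35184551-35200291, minus strand, GRCm38), which bridges the receptor to MyD88, was lower in level and moved less. It was at 5.00, 4.95 and 4.63 FPKM in WT untreated, 3.76, 4.01 and 3.94 FPKM in Pim1-/- untreated, 12.1, 11.6 and 11.6 FPKM in WT LPS and 8.43, 8.41 and 7.53 FPKM in Pim1-/- LPS libraries. The genotypes did not overlap in either condition. LPS raised the mean 2.42-fold in WT and 2.08-fold in Pim1-/- BMDMs. The log2 changes of FPKM + 1 were 1.12 ± 0.05 and 0.89 ± 0.05 (SE), on either side of the 2-fold line because of the added 1 FPKM. The Pim1-/- level was 80.3% of WT without treatment and 69.1% after LPS, with limma adjusted p = 0.000384 and 5.52e-07. Srpr shares 117 bases with Tirap on the opposite strand. Its means were 32.7 and 24.9 FPKM untreated and 78.3 and 51.6 FPKM after LPS in WT and Pim1-/- BMDMs.

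Ticam1 (chr17:56269319-56276786, minus strand, GRCm38), the gene of TRIF, showed the reverse order, with the larger gap between genotypes before treatment. Its levels were 14.4, 14.5 and 14.4 FPKM in WT untreated, 7.91, 7.77 and 9.31 FPKM in Pim1-/- untreated, 28.9, 27.6 and 27.7 FPKM in WT LPS and 20.6, 19.9 and 23.7 FPKM in Pim1-/- LPS libraries. No Pim1-/- library reached the WT range of its condition, and the third Pim1-/- library was the highest of its group in both conditions. The Pim1-/- mean was 57.8% of WT without treatment and 76.3% after LPS, a log2 difference of −0.73 ± 0.07 (SE, limma adjusted p = 9.8e-08) and −0.38 ± 0.07 (adjusted p = 9.31e-05). LPS raised the mean 1.95-fold in WT and 2.57-fold in Pim1-/- BMDMs.

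Ticam2 (chromosome 18), the gene of TRAM, behaved much like Ticam1 but with a smaller response. It was at 13.7, 13.8 and 13.9 FPKM in WT untreated, 7.44, 7.91 and 8.14 FPKM in Pim1-/- untreated, 18.3, 17.6 and 17.2 FPKM in WT LPS and 12.2, 12.5 and 13.3 FPKM in Pim1-/- LPS libraries. The LPS-treated Pim1-/- cells therefore stayed below the untreated WT cells, a pattern that no other gene of the 10 showed except Traf3. The log2 difference between genotypes was −0.75 ± 0.05 (SE, limma adjusted p = 1.4e-09) without treatment and −0.45 ± 0.05 (adjusted p = 4.23e-07) after LPS. The rise with LPS was 1.28-fold in WT and 1.62-fold in Pim1-/- BMDMs, and on the log2 scale it turned from 0.34 to −0.44 in WT when libraries were rescaled to a sum of 1000000, above the −0.71 of all genes. Under quantile normalization the change in WT was 0.05 and did not pass (limma adjusted p = 0.318). Ticam2 shares 14299 bases on the same strand with Tmed7, whose protein traffics TLR4, so the split of reads between them is uncertain. The Tmed7 means were 38.0 and 41.0 FPKM in untreated and 69.9 and 62.6 FPKM in LPS-treated WT and Pim1-/- BMDMs.

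On the deposited scale, the TRAF ubiquitin ligases differed least between genotypes among the 10 genes. Traf3 (chr12:111166370-111267153, plus strand, GRCm38), which couples TRIF to TBK1, was at 3.57, 3.42 and 3.82 FPKM in WT untreated, 3.02, 3.46 and 3.53 FPKM in Pim1-/- untreated, 2.81, 2.80 and 2.76 FPKM in WT LPS and 2.86, 3.10 and 2.97 FPKM in Pim1-/- LPS libraries. The genotypes overlapped without treatment, and after LPS every Pim1-/- library was above every WT library by a small margin. The log2 difference was −0.09 (95% interval −0.21 to 0.04, limma adjusted p = 0.18) and 0.07 (−0.05 to 0.19, adjusted p = 0.287), and the second turned to −0.03 under quantile normalization and was 0.23 (adjusted p = 0.0103) with libraries rescaled to a sum of 1000000. Traf3 was the lowest or next to lowest of the 10 genes in every group, with an estimated 58 fragments per kilobase behind its lowest value, which limits what could be detected. With LPS it fell by 0.28 on the log2 scale in WT (limma adjusted p = 0.000282) and by 0.12 in Pim1-/- BMDMs (adjusted p = 0.057), where the value turned to 0.04 under quantile normalization. In WT the value under quantile normalization was −0.0018 (limma adjusted p = 0.976).

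Traf6 (chr2:101678429-101701669, plus strand, GRCm38), the ligase of the MyD88 arm, was at 6.71, 7.07 and 6.79 FPKM in WT untreated and 5.39, 5.68 and 5.96 FPKM in Pim1-/- untreated libraries. After LPS it was at 8.62, 9.99 and 9.76 FPKM in WT and 8.02, 7.94 and 8.64 FPKM in Pim1-/- libraries, where the genotypes overlapped. Its Pim1-/- level was 82.7% of WT without treatment (limma adjusted p = 0.00185) and 86.7% after LPS (adjusted p = 0.00974), and the latter difference was 0.0016 on the log2 scale when libraries were rescaled to a sum of 1000000. The rise with LPS, 1.38-fold in WT and 1.44-fold in Pim1-/- BMDMs, turned to a log2 change of −0.33 and −0.12 under the same rescaling, again above the median of all genes.

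Tbk1 (chr10:121546455-121586787, minus strand, GRCm38) and Ikbke (chr1:131254343-131279606, minus strand, GRCm38) encode the kinases of IRF3. Both were lower in Pim1-/- BMDMs in both conditions. On the deposited scale the gap was wider after LPS for Tbk1 and narrower for Ikbke. Tbk1 was at 25.9, 26.7 and 26.3 FPKM in WT untreated, 20.3, 20.4 and 20.6 FPKM in Pim1-/- untreated, 93.3, 97.9 and 91.6 FPKM in WT LPS and 63.5, 64.2 and 64.1 FPKM in Pim1-/- LPS libraries. Its Pim1-/- level was 77.7% of WT without treatment and 67.8% after LPS, with log2 differences of −0.35 ± 0.04 (SE, limma adjusted p = 6.04e-07) and −0.55 ± 0.04 (adjusted p = 2.42e-09). The groups did not overlap, and the mean rose with LPS by 3.59-fold in WT and 3.13-fold in Pim1-/- BMDMs.

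Ikbke was at 24.6, 24.0 and 27.6 FPKM in WT untreated and 9.34, 8.64 and 9.20 FPKM in Pim1-/- untreated libraries. After LPS it reached 236, 233 and 238 FPKM in WT and 122, 119 and 125 FPKM in Pim1-/- libraries. In untreated WT cells the 2 kinases had overlapping levels, whereas in untreated Pim1-/- cells Ikbke was below Tbk1 in every library, and after LPS it was above Tbk1 in both genotypes. The Pim1-/- level of Ikbke was 35.6% of WT without treatment, the lowest share among the 10 genes in that condition, and 51.8% after LPS. The log2 difference was −1.39 ± 0.05 (SE, limma adjusted p = 1.23e-12) and then −0.94 ± 0.05 (adjusted p = 1.31e-10). The mean rose 9.27-fold in WT and 13.5-fold in Pim1-/- BMDMs, and the difference in log2 response was 0.45 ± 0.07 (SE, limma adjusted p = 5.56e-05).

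**Figure D2:**
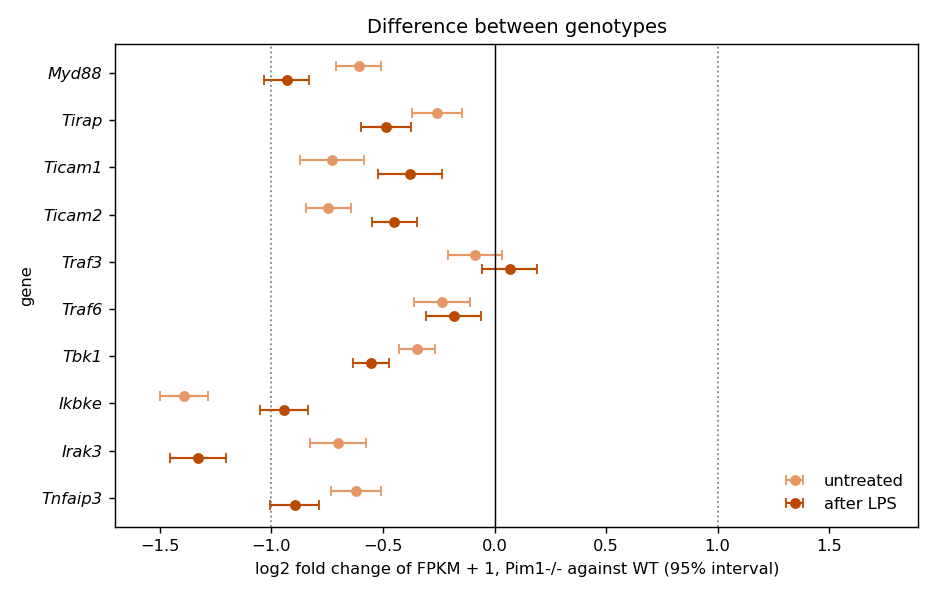
Difference between Pim1-/- and WT BMDMs for each gene, as log2 fold change of FPKM + 1 on the x axis with 95% intervals from limma (3 libraries per group); dotted lines mark 2-fold. Ikbke moved from −1.39 untreated to −0.94 after LPS and Irak3 from −0.70 to −1.33, while the intervals of Traf3 crossed 0 in both conditions and, for Traf6 after LPS, the value was close to 0 when libraries were rescaled.

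Irak3 (chr10:120141648-120202130, minus strand, GRCm38), the gene of the inhibitor IRAK-M, had the largest difference in response between genotypes on the deposited scale, though under quantile normalization and with libraries rescaled to a sum of 1000000 that of Ikbke was larger. It was at 8.64, 8.97 and 8.82 FPKM in WT untreated, 4.56, 5.02 and 5.56 FPKM in Pim1-/- untreated, 38.3, 37.7 and 34.7 FPKM in WT LPS and 13.7, 13.8 and 14.7 FPKM in Pim1-/- LPS libraries. The genotypes were apart in both conditions, and the gap widened after LPS, when the Pim1-/- level was 38.1% of WT, from 57.3% before it. The log2 difference was −0.70 ± 0.06 (SE, limma adjusted p = 4.3e-08) without treatment and −1.33 ± 0.06 (adjusted p = 1.94e-11) after LPS. LPS raised the mean 4.19-fold in WT and 2.79-fold in Pim1-/- BMDMs, and the difference in log2 response, −0.63 ± 0.08 (SE, limma adjusted p = 1.12e-05), was −0.26 under quantile normalization. Tmbim4 shares 541 bases with Irak3 on the opposite strand. Its means were 61.1 and 72.3 FPKM untreated and 166 and 149 FPKM after LPS in WT and Pim1-/- BMDMs.

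Tnfaip3 (chr10:19000910-19015657, minus strand, GRCm38), the gene of A20, had the largest rise. It was at 4.05, 4.28 and 4.58 FPKM in WT untreated, 2.203, 2.51 and 2.63 FPKM in Pim1-/- untreated, 619.8, 617.9 and 604 FPKM in WT LPS and 320.6, 326 and 342 FPKM in Pim1-/- LPS libraries. This is a 143-fold rise of the mean in WT and a 135-fold rise in Pim1-/- BMDMs, and it took the gene from rank 9 of 10 in untreated WT cells and rank 10 in untreated Pim1-/- cells to rank 1 in both after LPS. The Pim1-/- level was 56.9% of WT without treatment and 53.7% after LPS, with log2 differences of −0.62 ± 0.05 (SE, limma adjusted p = 3.31e-08) and −0.90 ± 0.05 (adjusted p = 3.56e-10). The shares of WT were close in the 2 conditions while the log2 differences were not, because 1 FPKM was added before the logarithm and the untreated levels were low.

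**Figure D3:**
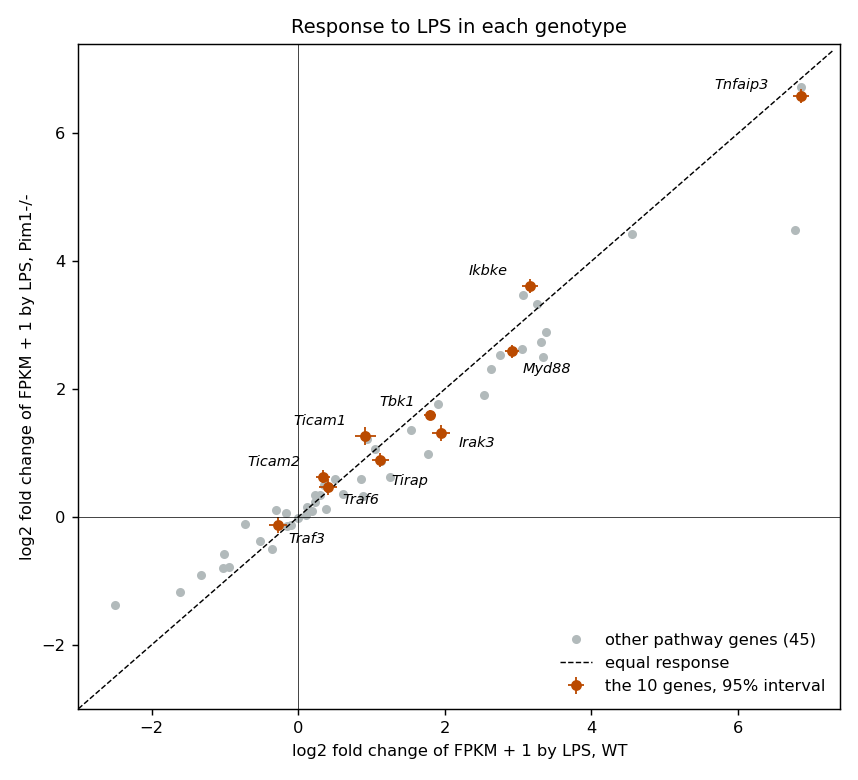
Response to LPS in WT (x axis) and Pim1-/- BMDMs (y axis), as log2 fold change of FPKM + 1, of the 10 genes with 95% intervals and of 45 other genes of the pathway in grey. Ikbke, Ticam1 and Ticam2 lie above the dashed line of equal response and Irak3, Tirap, Myd88, Tnfaip3 and Tbk1 below it, the last 3 of these turning to above it under quantile normalization; the LPS axes also shift down by about the median of all genes when libraries are rescaled to a sum of 1000000.

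After LPS the order of levels was Tnfaip3, Myd88, Ikbke and Tbk1 in both genotypes, with no overlap between neighbours. Below them Irak3 was above Ticam1 in WT and below it in Pim1-/- BMDMs, each without overlap, and Ticam2 was next in both. The lower end differed in that Tirap was above Traf6 in WT, whereas their ranges overlapped in Pim1-/- BMDMs. Traf3 came last in both. In untreated cells Myd88 was followed by Tbk1 and Ikbke in both genotypes, and in Pim1-/- cells the ranges of Ikbke and Ticam1, of Ticam1 and Ticam2, and of Traf6 and Irak3 overlapped.

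The sequence before the transcription start is shown for the 3 genes in which a searched motif was found, so the choice was made by the matches and not by the response. Tnfaip3 and Myd88 were called as rising with LPS and Traf3 was not, while Ikbke, which rose more than Myd88, held no match. The windows are from RefSeq on GRCm38.p6, cut to the bases that lie outside annotated exons, and run 5′ to 3′ on the strand of the gene. They were searched on both strands for the NF-κB (kappaB) consensus and for GAAANNGAAA, the core of the interferon-stimulated response element (ISRE), and matches are in capitals. Tnfaip3 is shown at chr10:19015411-19015547 (minus strand), Myd88 at chr9:119340042-119340268 (minus strand) and Traf3 at chr12:111166120-111166369 (plus strand). The starts are those of RefSeq transcripts, and for Tnfaip3 and Myd88 they lie inside the longer gene intervals of GENCODE given above.
Tnfaip3: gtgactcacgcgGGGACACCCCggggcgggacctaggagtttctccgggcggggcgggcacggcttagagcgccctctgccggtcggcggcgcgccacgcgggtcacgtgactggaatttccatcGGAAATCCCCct
Myd88: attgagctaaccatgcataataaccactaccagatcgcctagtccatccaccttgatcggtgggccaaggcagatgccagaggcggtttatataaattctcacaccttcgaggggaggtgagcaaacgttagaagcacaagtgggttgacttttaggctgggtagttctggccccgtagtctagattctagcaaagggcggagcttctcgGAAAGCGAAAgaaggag
Traf3: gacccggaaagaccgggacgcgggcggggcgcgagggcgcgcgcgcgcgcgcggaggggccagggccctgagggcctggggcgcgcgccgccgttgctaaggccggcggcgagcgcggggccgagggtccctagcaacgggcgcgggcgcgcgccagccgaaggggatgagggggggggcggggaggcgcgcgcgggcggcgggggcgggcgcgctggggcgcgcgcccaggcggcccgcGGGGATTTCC

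The Tnfaip3 window shown holds 2 kappaB matches, GGGACACCCC at 125 to 116 bases and GGAAATCCCC at 12 to 3 bases before the start, and the other Tnfaip3 window, at chr10:19011964-19012213, holds no match. That of Myd88 holds an ISRE core, GAAAGCGAAA, at 40 to 31 bases before the start. Traf3, which fell slightly with LPS on the deposited scale, also holds a kappaB match, GGGGATTTCC, in the last 10 bases before its start. Of the 9 genes matched in the promoter table, over 12 windows of 300 bases, 2 held a kappaB match and 1 an ISRE core, where 8.46% and 3.44% of all 32851 windows did. No kappaB match overlapped an ISRE core. A match is a run of letters, and no binding was measured.

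Of 48 other genes of TLR signalling that were listed by role, 45 were expressed highly enough to test, all but Traf4, Sarm1 and Il1rl1. LPS called 18 as higher and 5 as lower in WT, against 20.1% and 14.7% of all genes. In Pim1-/- BMDMs it called 16 and 2, against 14.6% and 10.4%. Between genotypes, 0 were called as higher and 3 as lower without treatment, against 4.4% and 3.37%. After LPS these were 0 and 5, against 3.51% and 5.15%. At an FDR under 0.1, 7 were higher and 30 lower without treatment, against 34.6% and 44.2%. After LPS 4 were higher and 31 lower, against 37.6% and 43.4%. Their medians were −0.21 and −0.29 on the log2 scale, beside −0.05 and −0.03 for all tested genes.

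Among the A20 partners and deubiquitinases, 3 of 10 were called as lower in Pim1-/- BMDMs after LPS, against 5.15% of all genes, and none without treatment, against 3.37%. These were Tnip1, Tnip2 and Tnip3, the ABIN genes, whose proteins bind ubiquitin or A20. Tnip3 was at 4.23 ± 0.29 (SD, n = 3) FPKM in WT untreated and 5.29 ± 0.24 FPKM in Pim1-/- untreated cells, and rose to 575 ± 12.7 FPKM in WT but 141 ± 11.5 FPKM in Pim1-/- cells. It was thus higher without Pim1 before treatment and lower after it, with a difference in log2 response of −2.29 ± 0.08 (SE, limma adjusted p = 8.01e-12), the largest in size among the 45 genes. Tnip1 had a log2 difference after LPS of −1.01 ± 0.05 and Tnip2 of −1.06 ± 0.05 (SE), beside the −0.90 of Tnfaip3. The calls of Tnip1 and Tnip2 were marginal, since their 95% intervals from limma (−1.13 to −0.90 and −1.18 to −0.95) crossed the 2-fold line. That of Tnip3 (−2.15 to −1.90) did not. Fewer pathway genes were called after LPS with rescaled libraries or under quantile normalization, and which of these genes lost the call is not given here. The deubiquitinase gene Usp25 rose by 3.34 in WT and 2.50 in Pim1-/- BMDMs on the log2 scale.

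Among the other brakes, 2 of the 5 tested were called as lower after LPS, against 5.15% of all genes. They were Tifab, an inhibitor of TRAF6 signalling, with a log2 difference of −1.31, and N4bp1, an inhibitor of NF-κB signalling, with −1.19. Tifab was also lower without treatment, at 7.03 ± 0.44 against 25.8 ± 0.55 (SD, n = 3) FPKM. Of the 8 genes of ubiquitin ligases and their E2 enzymes, Peli2 was called as lower without treatment at −1.23, and fell less with LPS in Pim1-/- BMDMs than in WT, by 1.38 and 2.50. Its means were 10.1 and 3.71 FPKM untreated and 0.95 and 0.81 FPKM after LPS in WT and Pim1-/- BMDMs. Both means after LPS were below the added 1 FPKM, so the smaller fall cannot be told apart from the lower start. Peli1 rose by 4.55 in WT and 4.43 in Pim1-/- BMDMs, and Rnf31, of the linear ubiquitin ligase, by 3.38 and 2.90. In the TAK1 list Map3k8, the gene of Tpl2, was called as lower without treatment at −1.04 ± 0.05 (SE).

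The genes that work directly beside the 10 moved in part with them. All 3 IRAK kinase genes were lower at an FDR under 0.1 in both conditions, against 44.2% of all genes without treatment and 43.4% after LPS. Their median log2 differences were −0.55 and −0.29. Irak2, a kinase gene of the MyD88 complex, rose by 3.26 in WT and 3.34 in Pim1-/- BMDMs, and Irak4 was called as falling with LPS in WT, by 1.02. Of the TBK1 scaffold genes, Tank rose by 3.06 and 2.62 and Azi2 by 2.75 and 2.53 in WT and Pim1-/- BMDMs. In the 3 other TRAF genes tested, Traf1 rose by 6.87 and 6.73, close to Tnfaip3, and Traf2 by 2.53 and 1.91. Irf3 itself was at 19.1 ± 0.94 and 16.9 ± 0.78 (SD, n = 3) FPKM in WT and Pim1-/- untreated and at 16.9 ± 0.53 and 17.6 ± 1.01 FPKM in WT and Pim1-/- LPS cells, lower in Pim1-/- without treatment (log2 difference −0.17, limma adjusted p = 0.0088) and not past the threshold after LPS (0.05, adjusted p = 0.356). No gene of the RIPK1 branch of TRIF was called in any of these comparisons, though Ripk3, the kinase gene of necroptosis, was higher in Pim1-/- BMDMs on the log2 scale by 0.96 ± 0.09 (SE, limma adjusted p = 2.04e-07) without treatment and by 0.95 ± 0.09 (adjusted p = 1.82e-07) after LPS. Its means were 6.84 against 3.04 and 6.78 against 3.05 FPKM, and with a pseudocount of 0.1 it was called in both conditions, at 1.14 in each.

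**Figure D4:**
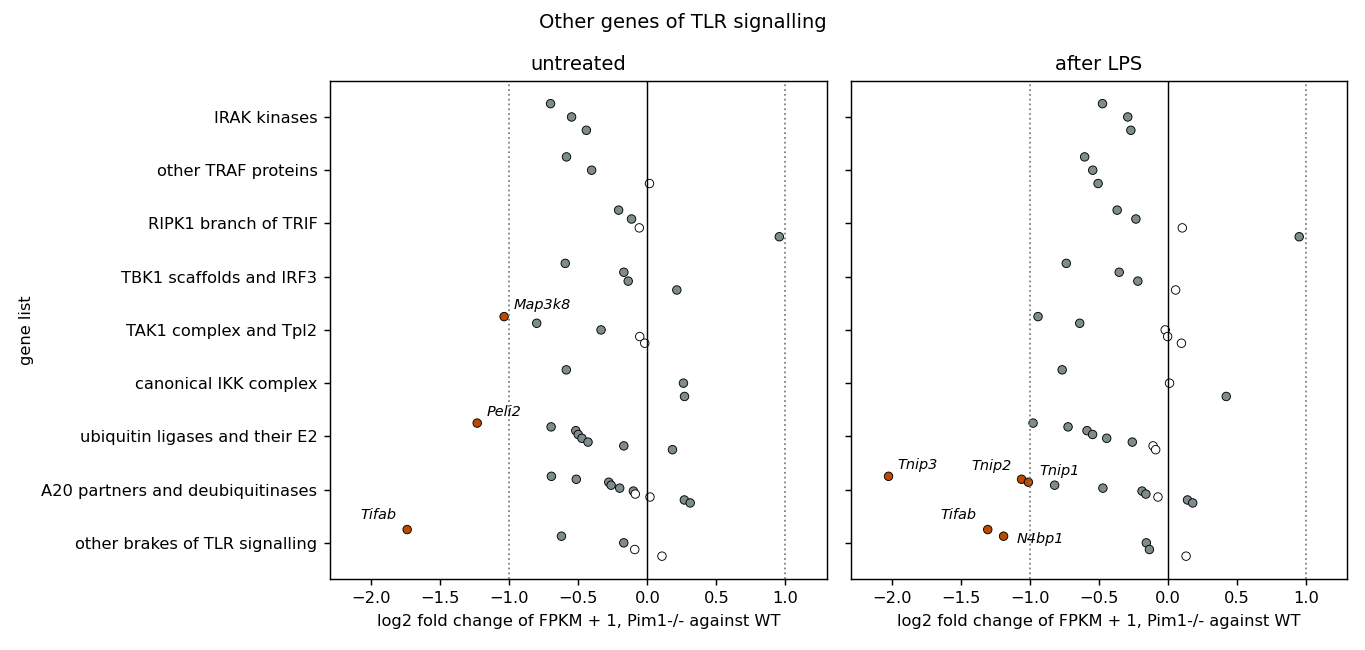
Difference between Pim1-/- and WT BMDMs, as log2 fold change of FPKM + 1 on the x axis, of 45 other genes of TLR signalling in 9 lists, untreated (left) and after LPS (right). Each point is a gene, filled orange and named where called, grey where only the FDR was under 0.1 and white where it was not; 3 genes were called as lower without treatment and 5 after LPS.

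The gene with the most similar pattern over the 12 libraries was found for each of the 10, as the smallest root mean square difference of centred log2(FPKM + 1). For Tirap it was Zfr (0.04), for Traf6 Trip11 (0.04), for Ticam2 Baz2a (0.05), for Myd88 Arel1 (0.05), for Traf3 Thada (0.05), for Tbk1 Lphn2 (0.07), for Irak3 Plcb3 (0.07) and for Ticam1 Jarid2 (0.09). Ikbke and Tnfaip3 had the most distant neighbours, Trafd1 at 0.12 and Traf1 at 0.17. Within the 10, the closest to Myd88 was Ikbke at 0.42, and Tirap and Ticam1 were each other's closest at 0.20.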

How the data were processed

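RNA-seq libraries of 12 BMDM samples, 3 per group, were prepared by the authors with a stranded mRNA kit. Processing used bcl2fastq 2.20.0.422, cutadapt 1.18, TopHat2 2.0.13 and Cuffdiff 2.2.1 on mm10 per the labels, while the methods name rat rn5. Mouse symbols of GENCODE M21 included 94.6% of the names in the files. The authors deposited 1 column per library with no unit, read here as FPKM from its decimals, its sum and the use of Cuffdiff. For library normalization and strand use in counting, nothing is stated in the sources used here.

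No rescaling was applied. The 10581 genes that reached 1 FPKM in 3 or more libraries were fitted on log2(FPKM + 1) with limma 3.58.1 (R 4.3.3) as 4 group means with an intensity trend. The pseudocount understates changes of low genes. All adjusted p-values are Benjamini-Hochberg values over all tested genes. Low values fell on whole multiples of a step (59.3% to 73.3% of 280 to 322 values within 0.05, where 10% is chance), and the step puts the total that each library was divided by at 37.9 to 45.9 in untreated and 21.0 to 32.3 in LPS libraries, in units of 1000000 fragments. This is an estimate, since no counts were used. Within groups, replicates correlated at 0.996 to 0.998 across genes, which are not independent, and no 2 libraries were identical.

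The 10 genes, the other gene lists and the markers were chosen with earlier results of these data known. One macrophage marker of the list is not reported here. Named genes are all 10 members, up to 3 called genes per list and comparison with the largest change, and the most similar gene of each member. Genes outside this rule (Irf3, Ripk3, the closest member pairs and the overlapping genes Acaa1a, Slc22a14, Srpr, Tmbim4 and Tmed7) were named after their values were seen. Alternatives were a pseudocount of 0.1, a filter of 5 FPKM or none, median-ratio, quantile and rescaling to a sum of 1000000, only the groups compared, a replicate block, no trend, an FDR under 0.05 without fold, and leaving out each of the 12 libraries. Figures used Python 3.11.15 and matplotlib 3.10.9.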

Additional observations from a re-analysis of the deposited data

Results flagged for a closer look

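The response to LPS differed between the genotypes for 8 of the 10 genes, by the interaction term of limma at an FDR under 0.1, and none of the differences reached 2-fold. At the same threshold 32.7% of all tested genes had a stronger and 35.8% a weaker response. The count for the 10 genes was thus near the share of all genes. Stronger in Pim1-/- BMDMs were the responses of Ikbke (log2 difference 0.45, adjusted p = 5.56e-05), Ticam1 (0.35, adjusted p = 0.00456) and Ticam2 (0.30, adjusted p = 0.00132). Weaker were those of Irak3 (−0.63, adjusted p = 1.12e-05), Myd88 (−0.32, adjusted p = 0.000652), Tnfaip3 (−0.28, adjusted p = 0.00412), Tirap (−0.23, adjusted p = 0.0146) and Tbk1 (−0.20, adjusted p = 0.00347). Of these, Ikbke, Ticam1, Ticam2, Irak3 and Tirap kept their direction under every alternative tried, while Myd88, Tnfaip3 and Tbk1 did not under quantile normalization. The 3 stronger and 5 weaker responses became 5 and 2 with libraries rescaled to a sum of 1000000, 3 and 1 under quantile normalization, and 3 and 4 with a pseudocount of 0.1, where Tnfaip3 was at −0.11 (adjusted p = 0.292). Ikbke, Ticam1, Ticam2 and Irak3 passed in each of these. With libraries rescaled to a sum of 1000000, 4627 of the 10581 tested genes were stronger and 2752 weaker. These counts were 3844 and 3236 under quantile normalization, and 3484 and 3545 with a pseudocount of 0.1.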

How the results depend on the processing

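Of 1035 values of single genes under alternatives, 1020 kept their direction and side of the threshold. That count holds many alternatives that could not change a direction. The filters, the replicate block, the fit without a trend and that of only the groups compared leave the log2 change as it is. Only the pseudocount, the scalings and the left-out libraries can move it. The deposited scaling matters most. With libraries rescaled to a sum of 1000000, the 10 genes called for LPS in Pim1-/- BMDMs numbered 3 in place of 6 (Ticam1 at 0.67, Tbk1 at 0.97 and Irak3 at 0.77 lost the call), Tirap lost it in WT at 0.43, and the other pathway genes called between genotypes after LPS numbered 3 in place of 5. Directions that turned there were the LPS response in WT of Ticam2 (−0.44) and Traf6 (−0.33), that of Traf6 in Pim1-/- (−0.12) and the genotype difference of Traf6 after LPS (0.0016). Under quantile normalization the pathway count after LPS was 2, and the values that turned were those of Traf3 for LPS in Pim1-/- (0.0397) and between genotypes after LPS (−0.033) and the differences in response of Myd88 (0.017), Tbk1 (0.099) and Tnfaip3 (0.0895). Quantile normalization also gave 1641 higher and 1830 lower calls for LPS in WT. Between genotypes after LPS it called 694 of all 10581 tested genes, and the rescaling called 987, in place of 916. The cause was not tested in any of these. A pseudocount of 0.1 called 5 pathway genes between genotypes without treatment (1 higher, 4 lower) and 6 after LPS (1 higher, 5 lower), the higher one being Ripk3 in both, and Tirap for LPS in Pim1-/- at 1.04. Of all tested genes, that pseudocount called 616 as higher and 583 as lower without treatment, and 717 and 725 after LPS. The filter of 5 FPKM removed Traf3. Without a fold threshold, at an FDR under 0.05, calls among the 10 genes numbered 10 for LPS in WT, 9 between genotypes without treatment, 9 after LPS and 8 for the difference in response, and those among pathway genes 42 and 38 for LPS in WT and Pim1-/-, 37 and 35 between genotypes and 24 for the difference in response, since the fold is not used. Of all 10581 tested genes, 9453 and 8954 passed that rule for LPS in WT and Pim1-/- BMDMs. Between genotypes 7904 passed it without treatment and 8194 after LPS, and 6657 did for the difference in response.

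Leaving out each library in turn left the calls among the 10 genes at 6 to 6 for LPS in WT, 6 to 6 in Pim1-/-, 1 to 1 between genotypes without treatment, 1 to 1 after LPS and 0 to 0 for the difference in response. The pathway counts ranged from 22 to 23, 18 to 19, 2 to 3, 4 to 6 and 2 to 2. Without WT LPS replicate 1 the difference in response of Traf6, between −0.0062 and 0.0897 over all such fits, turned to −0.0062. The replicate numbers did not pair the libraries in all comparisons, with correlations of same-numbered deviations from −0.05 to 0.33, though for LPS in Pim1-/- BMDMs all 6 libraries correlated best with their own number. With the replicate block, calls among the 10 genes stayed at 6, 6, 1, 1 and 0, and those over all genes went from 823 to 824 and from 916 to 915 between genotypes. The depth of the lowest gene, Traf3, limits its comparisons.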
